A study of Mus musculus with 16 samples.

Results

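A set of 32 genes that mark or are strongly used by astrocytes was followed in RNA bound to tagged polysomes of prelimbic cortex (PL) projection neurons. They were taken by gene symbol from a list, out of 39017 gene rows, and all 32 had reads and an adjusted p in each of the 3 projections. Astrocytes are the glial cells that wrap synapses and vessels, buffer potassium and water, recycle transmitters and feed neurons, and they couple to each other through connexin channels. The listed genes serve these roles as channels, receptors, transporters, enzymes and secreted proteins, and several are also transcribed in neurons, endothelial cells or other glia.

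All mice were C57BL/6J, an inbred strain. Each carried AAV-IV-GFPL10, a virus for a ribosomal protein fused to green fluorescent protein, in PL, and CAV-Cre, a canine adenovirus that enters axon terminals, in 1 target of those PL neurons. The immunoprecipitate (IP) held polysomes pulled down with anti-GFP beads, and the Input was total RNA of the surrounding PL. The groups were PL-NAc IP and PL-NAc Input (nucleus accumbens, 3 libraries each), PL-BLA IP and PL-BLA Input (basolateral amygdala, 3 each), and PL-VTA IP and PL-VTA Input (ventral tegmental area, 2 each). The labels say nothing of age, sex or how many animals stand behind a library, so the p-values measure only the spread between these libraries, which may be technical. The choice of cells rests on which neurons took up CAV-Cre and expressed the tag, and the Input of each projection carried both viruses too.

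The authors' comparison of IP with Input gave 1 table a projection, with a mean normalized count per gene over its libraries, a log2 fold change, its standard error (SE) and an adjusted p. No per-library values were used. The header does not name the direction of the fold change. It was read as IP over Input from transcripts that cytosolic ribosomes do not carry, without any astrocyte gene: all 8 mitochondrially encoded mRNAs with reads were negative in each table, with medians of -6.21 (PL-NAc), -5.09 (PL-BLA) and -3.19 (PL-VTA), and so were 6 of 7 nuclear noncoding RNAs, Malat1 among them at -6.25, -5.93 and -3.73 in the authors' deposited tables. With the opposite reading every sign would turn. Fold changes are log2 of IP over Input unless given as percent of Input, and a run of 3 values follows the order PL-NAc, PL-BLA, PL-VTA. Summed over genes, mean normalized counts came to about 15438000, 16348000 and 16520000. The median SE of the members was 0.13 in both PL-NAc and PL-BLA, against 0.20 in PL-VTA, which had fewer libraries.

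Astrocyte transcripts were lower in the IP of every projection, with few exceptions. In PL-NAc 30 of the 32 genes were lower in the IP (adjusted p under 0.05), against 21.7% of all genes tested. In PL-BLA 30 were lower, against 20.2% of all genes, and in PL-VTA 29, against 10.5%. None was higher at that threshold, where 21.4%, 20.8% and 11% of all genes were. The median log2 fold change of the members was -1.88 in PL-NAc, with -1.44 in PL-BLA and -1.49 in PL-VTA, or 27.3%, 36.9% and 35.5% of Input, beside medians of -0.03, -0.02 and 0.02 over all genes tested. At least 2-fold lower were 24, 23 and 22 members in the same order, against 10.7%, 9.17% and 6.53% of all genes. These are bulk values, in which RNA of astrocytes and RNA of the same genes from other cells, the tagged neurons included, cannot be told apart. The number of astrocytes behind the RNA and the RNA per astrocyte cannot be told apart either.

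The genes spread widely around these medians, from 9.31% of Input for Id3 to 95.4% for Mt3 in PL-NAc, from 9.33% for Id3 to 118% for Aldh1l1 in PL-BLA, and from 9.85% for Id3 to 86.0% for Sparcl1 in PL-VTA. The order of the genes was much alike in the 3 projections, which share no library. Across the 32 genes, Pearson's r of the log2 fold changes was 0.87 between PL-NAc and PL-BLA, 0.85 between PL-NAc and PL-VTA and 0.88 between PL-BLA and PL-VTA (Spearman's rho 0.85, 0.83 and 0.89). These are correlations across genes, which are not independent replicates. The order was weakly related to abundance: r of the log2 fold change with the log10 mean count was 0.18, 0.15 and 0.24. Of the members, 27 were lower in all 3 projections, 4 in 2 projections and 1 in none. Of all genes tested, 21.7%, 20.2% and 10.5% were lower in PL-NAc, PL-BLA and PL-VTA taken singly. The shares of all genes with the joint patterns are not given.

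**Figure D1:**
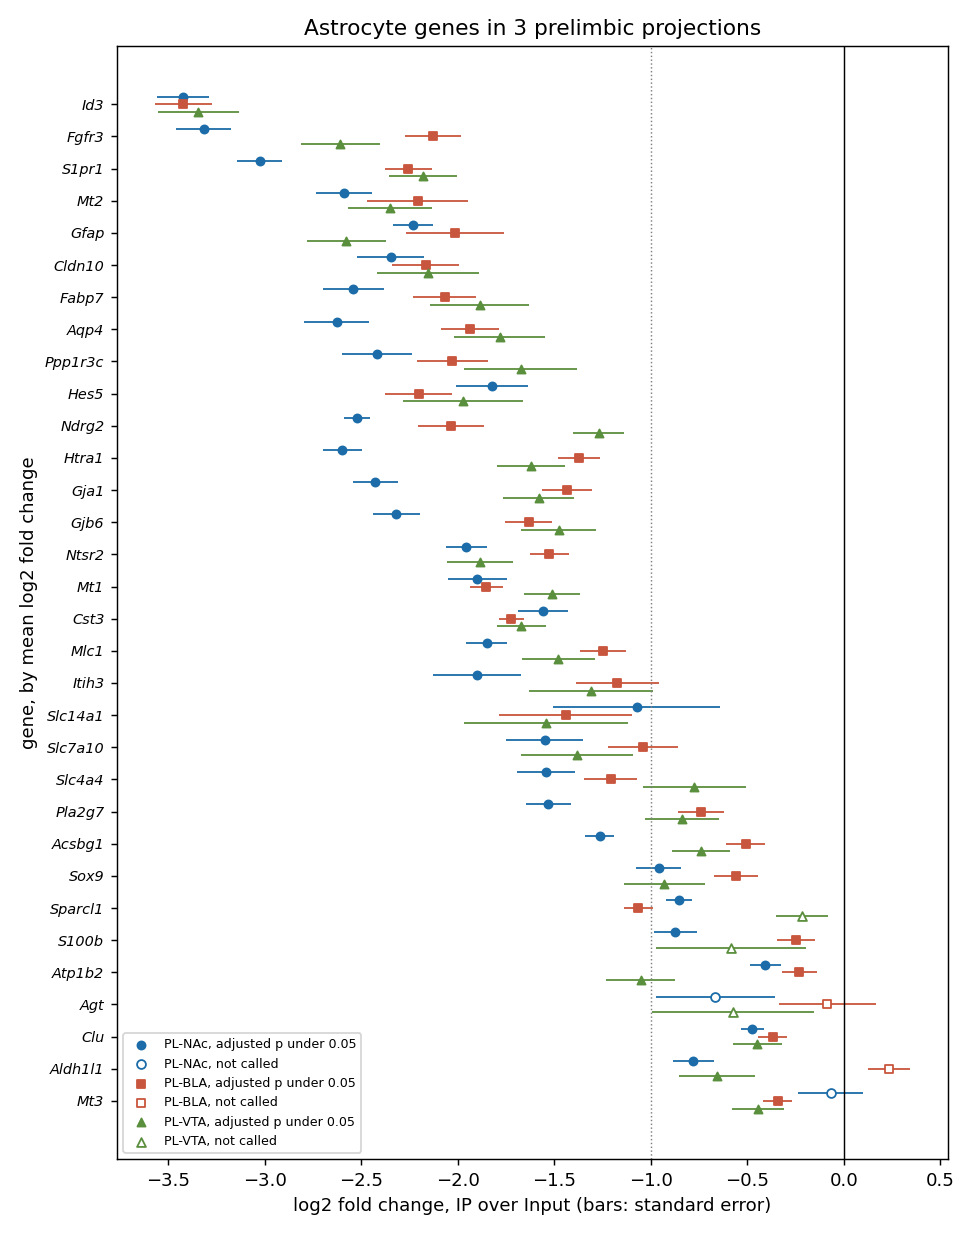
Log2 fold change of IP over Input for the 32 astrocyte genes, ordered from lowest to highest mean over the projections. Points are the authors' values, bars their standard errors, filled points are lower in the IP (adjusted p under 0.05), open points are not called, and the dotted line marks a 2-fold decrease. Id3 lies below -3.3 in all 3 projections, and the single point above 0 is Aldh1l1 in PL-BLA at 0.23.

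Regulators of the astrocyte state differed widely in depth of depletion. Id3 (chromosome 4, 136143497 to 136145755, GRCm38), an inhibitor of DNA binding by helix-loop-helix factors, was the most depleted gene. It was -3.43 (SE 0.13) in PL-NAc, followed by -3.42 (SE 0.15) in PL-BLA and -3.34 (SE 0.21) in PL-VTA, in the authors' deposited tables. These 3 values lay within 0.08 of each other, the narrowest range of any member. Hes5, an effector of Notch signalling, was -1.82 (SE 0.19), -2.20 (SE 0.17) and -1.97 (SE 0.31) in the authors' deposited tables. Sox9, a transcription factor that keeps astrocyte identity, was far less depleted, at -0.96 (SE 0.12), -0.56 (SE 0.11) and -0.93 (SE 0.21) in the same tables deposited by the authors. All 3 regulators were lower in the IP in every projection, against 21.7%, 20.2% and 10.5% of all genes. For Hes5, 31.8% of the exonic length is shared with a transcript on the other strand (Gm20421), and the library chemistry does not mark strand.

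The 3 receptors were all strongly depleted. Fgfr3 (chromosome 5, 33721674 to 33737068), a fibroblast growth factor receptor, was -3.32 (SE 0.14) in PL-NAc, but -2.13 (SE 0.14) in PL-BLA and -2.61 (SE 0.20) in PL-VTA in the authors' deposited tables. S1pr1, a receptor for sphingosine 1-phosphate that endothelial cells also use, was at 12.3%, 20.9% and 22.1% of Input. Ntsr2, a neurotensin receptor, was milder and stood at 25.8%, 34.7% and 27.1% of Input. Endothelial cells also use Id3 and S1pr1, and their markers together with those of mural cells had medians of -1.20, -1.17 and -0.63 (18 genes tested in PL-NAc and PL-BLA, 17 in PL-VTA). Of these, 12, 13 and 5 were lower, against 21.7%, 20.2% and 10.5% of all genes. In each projection 1, Egfl7, was higher, against 21.4%, 20.8% and 11%. The part of vascular RNA in the values of Id3 and S1pr1 was not tested.

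The 6 structural and channel genes were lower in the IP of every projection, against 21.7%, 20.2% and 10.5% of all genes. Gfap, the astrocyte intermediate filament, was -2.23 (SE 0.10) in PL-NAc, with -2.01 (SE 0.25) in PL-BLA and -2.58 (SE 0.21) in PL-VTA, in the authors' deposited tables. Cldn10, a claudin, stood at 19.6%, 22.3% and 22.5% of Input, and Aqp4, the water channel of astrocyte endfeet, at 16.2%, 26.1% and 29.0%. The connexin genes Gja1 and Gjb6, which form the gap junctions of the astrocyte network, lay close together at -2.43 (SE 0.12) and -2.32 (SE 0.12) in PL-NAc in the authors' deposited table. In PL-BLA Gja1 was -1.43 (SE 0.13) and Gjb6 -1.63 (SE 0.12), and the PL-VTA values were -1.58 (SE 0.18) for Gja1 and -1.48 (SE 0.19) for Gjb6, in the authors' deposited tables. Mlc1, a membrane protein of astrocyte junctions at vessels, was at 27.7%, 42.1% and 35.9% of Input.

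The 4 transport genes were lower in every projection, against 21.7%, 20.2% and 10.5% of all genes. They were less deeply depleted than the structural ones in PL-NAc, where the group medians were -1.31 and -2.33. Slc7a10, a transporter of small neutral amino acids, was -1.55 (SE 0.20), -1.04 (SE 0.18) and -1.38 (SE 0.29) in the authors' deposited tables. The sodium bicarbonate cotransporter Slc4a4 was -1.54 (SE 0.15), -1.21 (SE 0.14) and -0.78 (SE 0.27), and the urea transporter Slc14a1 -1.07 (SE 0.43), -1.44 (SE 0.35) and -1.54 (SE 0.42), in the authors' deposited tables. Slc14a1 had mean normalized counts of only 44.7, 46.9 and 53.7, and its PL-NAc call rests on an adjusted p that is 0.0320 in the authors' deposited table. Atp1b2, a beta subunit of the sodium pump that neurons also transcribe, was at 75.4% and 85.2% of Input in PL-NAc and PL-BLA but at 48.2% in PL-VTA.

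Metabolic genes ranged widely, and 5, 4 and 5 of the 5 were lower, against 21.7%, 20.2% and 10.5% of all genes. Fabp7, a fatty acid-binding protein of glia, was at 17.2%, 23.9% and 27.0% of Input, and Ppp1r3c, which targets a phosphatase to glycogen, at 18.7%, 24.5% and 31.3%. Ndrg2, of the N-myc downstream-regulated family and among the most abundant members, was -2.52 (SE 0.07) in PL-NAc, then -2.03 (SE 0.17) in PL-BLA and -1.27 (SE 0.13) in PL-VTA, in the authors' deposited tables. With its mean normalized count of 5356 in PL-NAc, that value corresponds to about 1588 normalized counts in the IP and 9124 in the Input; in PL-VTA the corresponding counts were 3825 in the IP and 9232 in the Input. The acyl-CoA synthetase Acsbg1 was -1.27 (SE 0.07), -0.51 (SE 0.10) and -0.74 (SE 0.15) in the authors' deposited tables.

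Aldh1l1 (chromosome 6, 90486427 to 90600203), a folate-metabolizing enzyme used widely to mark and target astrocytes, was the clearest exception. It was lower in the IP in PL-NAc at -0.78 (SE 0.11) and in PL-VTA at -0.66 (SE 0.20), but was 0.23 (SE 0.11) in PL-BLA, where it was not called (adjusted p 0.0711), in the authors' deposited tables. The 95% interval in PL-BLA ran from 0.02 to 0.45, so that a decrease of the size seen in the other projections lay outside it. Relative to the excitatory neuron markers, whose median in PL-BLA was 0.63, the PL-BLA value turned negative at -0.40. Its mean normalized count in PL-BLA was 988, and its SE was 1.08 times that typical of genes of similar abundance. Of its exonic length 13.4% is shared with other annotated genes, most of it with Gm15756 on the other strand.

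Genes for secreted proteins spread widely. Htra1, a serine protease, was -2.60 (SE 0.10), -1.37 (SE 0.11) and -1.62 (SE 0.18) in the authors' deposited tables. Cst3, the protease inhibitor cystatin C, had the highest mean count per kilobase of exon of the 32 genes in every projection, at 5967, 6746 and 7703. Its depletion was nearly equal in the 3 projections, at 33.9%, 30.3% and 31.4% of Input. Itih3, a heavy chain of a matrix-binding inhibitor, was at 26.8%, 44.4% and 40.3% of Input, and Pla2g7, which inactivates platelet-activating factor, at 34.6%, 59.9% and 55.9%.

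Clu, Sparcl1 and Agt were the least depleted of the secreted proteins by the mean over projections. Clu, the chaperone clusterin, was -0.47 (SE 0.06), -0.37 (SE 0.07) and -0.45 (SE 0.13), lower in every projection though by little, in the authors' deposited tables. The 3 values correspond to 5643 normalized counts in the IP and 7839 in the Input of PL-NAc, 7284 and 9412 in PL-BLA, and 7366 and 10055 in PL-VTA. Sparcl1 (hevin), a matrix protein that promotes synapse formation and that neurons also make, was -0.85 (SE 0.07) in PL-NAc and -1.07 (SE 0.08) in PL-BLA in the authors' deposited tables. In PL-VTA it was -0.22 (SE 0.13) and not called (adjusted p 0.270) in the authors' deposited table. Agt, the angiotensin precursor, was the only member called in no projection, at -0.67 (SE 0.31), -0.09 (SE 0.25) and -0.57 (SE 0.42) in the authors' deposited tables. Its mean counts of 48.3, 84.9 and 60.2 give wide intervals, from -1.27 to -0.06 in PL-NAc, from -0.58 to 0.40 in PL-BLA and from -1.40 to 0.25 in PL-VTA, and 2-fold decreases lie inside the first and the last.

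The metallothioneins, small cysteine-rich proteins that bind zinc and copper, separated within 1 gene cluster. Mt3, Mt2 and Mt1 lie in that order on the plus strand of chromosome 8, from 94152607 to 94154146, from 94172664 to 94173568 and from 94179082 to 94180327. Mt2 was -2.59 (SE 0.14), -2.21 (SE 0.26) and -2.35 (SE 0.22) in the authors' deposited tables. Mt1 was -1.90 (SE 0.15), -1.85 (SE 0.09) and -1.51 (SE 0.15) in the authors' deposited tables. Mt3, the brain form, which neurons are also known to express, was -0.07 (SE 0.17) in PL-NAc and not called (adjusted p 0.786), -0.34 (SE 0.07) in PL-BLA and -0.45 (SE 0.13) in PL-VTA, in the authors' deposited tables. In percent of Input, Mt3 stood at 95.4%, 78.8% and 73.3%, Mt1 at 26.8%, 27.7% and 35.1%, and Mt2 at 16.6%, 21.6% and 19.6%. The PL-NAc interval of Mt3, from -0.40 to 0.26, covers its PL-BLA value, whereas its PL-VTA value lies outside it. As deposited, no difference between projections passed the threshold for any of the 3 genes. Relative to other glia, Mt1 was higher in PL-NAc than in PL-BLA, by 0.57, and Mt3 was higher in PL-NAc than in both other projections. That scale raises every gene in PL-NAc against the others, and the deposited difference of Mt1 from PL-BLA was -0.05. An antisense transcript, Gm45774, covers 73.5% of the exonic length of Mt2, so that its counts cannot be assigned to 1 strand. No 50-base stretch of Mt1 or Mt3 transcripts recurs in another annotated gene.

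S100b, a calcium-binding protein that oligodendrocytes also make, was -0.87 (SE 0.11) in PL-NAc and -0.25 (SE 0.10) in PL-BLA, both lower, in the authors' deposited tables. It was -0.58 (SE 0.39) in PL-VTA and not called (adjusted p 0.320) in the authors' deposited table. That interval, from -1.35 to 0.18, covers the PL-NAc and PL-BLA values.

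Genes known outside astrocytes stood at both ends of the range. The 15 members listed as also expressed in other cell types had medians of -1.90, -1.72 and -1.51, and the other 17 had -1.85, -1.43 and -1.48. Mt3, Clu, Atp1b2, S100b and Sparcl1 belong to the first set and were among the least depleted, and Id3, S1pr1 and Mt2 of the same set were among the most depleted. Aldh1l1, Agt, Sox9 and Acsbg1, all mildly depleted or not called, belong to the second.

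The SE also set some members apart. In 7 of the 96 values of the 32 genes the SE was more than 2 times the typical SE at that abundance. The typical SE was the median over the 200 tested genes closest in mean count. The 7 were Mt3, Mt1 and Cst3 in PL-NAc, Gfap, Ndrg2 and Mt2 in PL-BLA, and S100b in PL-VTA. Of the 36603 values of genes with a mean of at least 50, 0.525% exceeded 2 times a running median over genes ordered by mean. That share is a near but not identical measure, and the 96 values include some with a mean under 50. For Mt3 in PL-NAc the ratio was 2.57, and for Gfap in PL-BLA 2.74. Which library lay behind a wide SE cannot be read from these tables. Exonic overlap with other genes reached 17.9% for Slc7a10 (with Lrp3) and 13.9% for Fgfr3, both on the other strand.

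**Figure D2:**
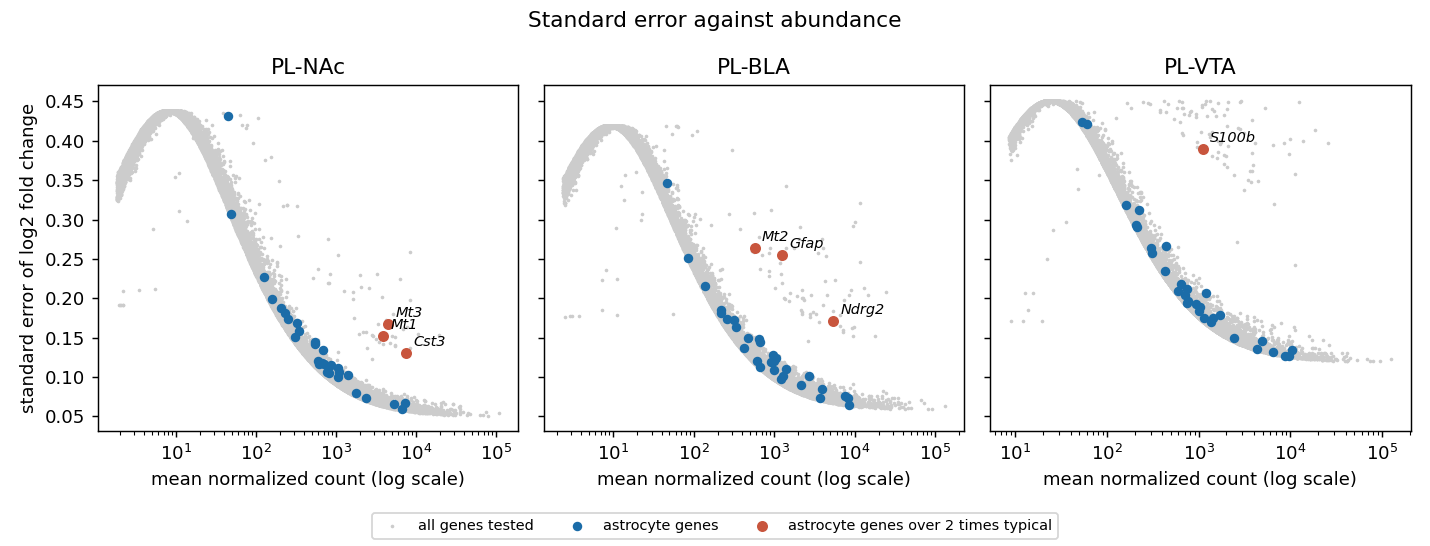
Standard error of the log2 fold change against the mean normalized count (log scale), for all genes tested (grey), astrocyte genes (blue) and the astrocyte genes whose SE exceeds 2 times the typical value (red, named). The blue points follow the grey band, and 3, 3 and 1 named points stand above it in PL-NAc, PL-BLA and PL-VTA.

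A further 50 genes known from astrocytes, none of them among the 32, behaved alike. They were listed with earlier results of these data known, so they are not an independent check. In PL-NAc 49 were lower in the IP, 48 were in PL-BLA, 45 were in PL-VTA, and none was higher, against the shares of all genes given above. Their medians were -1.91, -1.27 and -1.31, or 26.6%, 41.6% and 40.4% of Input. The lowest by mean over projections were Dio2, which activates thyroid hormone, at 10.6%, 11.2% and 14.9% of Input, and the cytokine Il33 at 12.8%, 20.6% and 21.8%. Between them lay Rgcc, a regulator of the cell cycle, with log2 fold changes of -3.20, -2.49 and -2.48, and the lipid carrier Apoe with -3.09, -2.33 and -2.58, in the authors' deposited tables. The highest with a mean of at least 50 were Ttyh1, a chloride channel family gene, at 71.3%, 79.0% and 60.1%, the fatty acid transporter Slc27a1 at 56.9%, 70.6% and 64.8%, the receptor Bmpr1b at 47.2%, 63.7% and 53.8%, and the glutamate transporter Slc1a2 at 55.4%, 53.1% and 44.3%. In PL-VTA, Bmpr1b was not called (adjusted p 0.0700 in the authors' deposited table). Of the 50, the gene called in no projection was Gli2, looked up after the counts were seen, whose mean counts were 21.5, 28.4 and 21.6.

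Other glia had lower medians still. Those of 18 oligodendrocyte markers were -2.69, -2.22 and -2.17, and those of 17 microglial markers -2.65, -2.03 and -1.93. Of the oligodendrocyte markers all 18 were lower in each projection, and of the microglial markers 17, 16 and 15. Mal, the lowest oligodendrocyte marker by the mean over projections, was at 9.70%, 12.4% and 13.9% of Input. The median of 20 inhibitory neuron markers was -1.77, -1.40 and -1.28, and that of 15 excitatory neuron markers was 0.51, 0.63 and 0.16. Of the excitatory markers 13, 13 and 4 were higher and 1, 0 and 3 lower. For all of these lists the shares of all genes were 21.7%, 20.2% and 10.5% lower and 21.4%, 20.8% and 11% higher. The 32 astrocyte genes together held 0.186% of the counts in the IP and 0.523% in the Input of PL-NAc, 0.208% and 0.526% in PL-BLA, and 0.243% and 0.558% in PL-VTA, as worked out from each gene's mean and fold change.

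**Figure D3:**
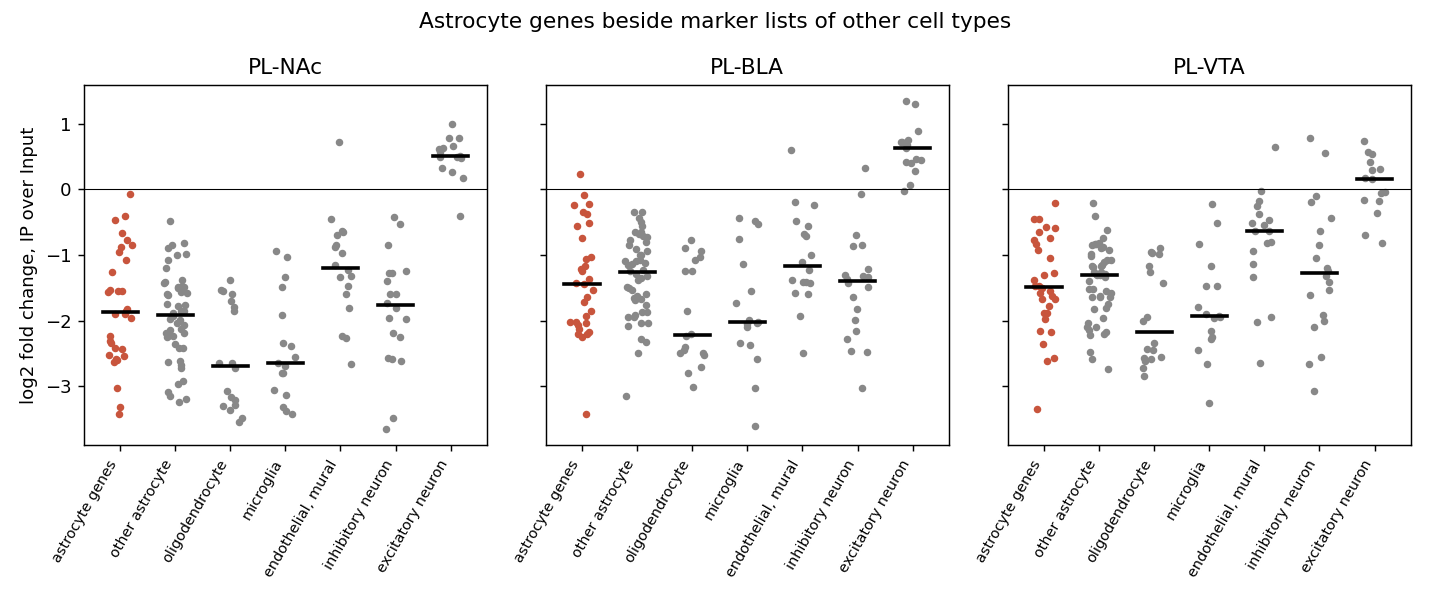
Log2 fold change of IP over Input for the 32 astrocyte genes (red) and for marker lists of other cell types (grey), with 1 point per gene and a black bar at each median. The astrocyte medians of -1.88, -1.44 and -1.49 lie between those of excitatory neurons, which are above 0, and those of oligodendrocytes and microglia, which are near or below -2.

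Depletion was compared between projections gene by gene, by a two-sided Wald z test of the difference between the log2 fold changes with Benjamini-Hochberg adjustment over all genes. In 22 of the 96 comparisons, spread over 13 genes, the difference passed an adjusted p of 0.05: 10 members in PL-NAc minus PL-BLA (1.55% of all genes), 8 in PL-NAc minus PL-VTA (3.36%) and 4 in PL-BLA minus PL-VTA (4.61%). In PL-NAc minus PL-BLA, 10 of 32 members were lower, against 1.02% of all genes, and none was higher, against 0.527%. In PL-NAc minus PL-VTA, 7 were lower, against 1.94%, and 1 was higher, against 1.43%. In PL-BLA minus PL-VTA, 2 were lower, against 2.27%, and 2 were higher, against 2.34%. The median difference of the members was -0.45, -0.33 and 0.10 in these 3 pairs, where that of all genes was -0.02, -0.05 and -0.03.

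Gja1, Gjb6, S1pr1, Htra1 and Acsbg1 were more depleted in PL-NAc than in both other projections, a contrast that was lost for all of them but Htra1 against PL-BLA when values were set relative to other glia. Acsbg1 also missed the threshold against PL-VTA after recentring on all genes. For Gja1 the difference was -0.99 (SE 0.17, adjusted p 5.4e-06) from PL-BLA and -0.85 (SE 0.22, adjusted p 0.00548) from PL-VTA, by the Wald z test. Of these 5 genes Htra1 differed most, with 16.5% of Input left in PL-NAc, against 38.6% in PL-BLA and 32.5% in PL-VTA. Between PL-BLA and PL-VTA the difference of Gja1 was 0.15, with a 95% interval from -0.29 to 0.59, and did not pass. Aldh1l1, Fgfr3, Mlc1, S100b and Pla2g7 were lower in PL-NAc than in PL-BLA and did not pass against PL-VTA. Relative to other glia, Mlc1, S100b and Pla2g7 no longer passed against PL-BLA. On that scale, which raises every gene in PL-NAc, Aldh1l1 was higher in PL-NAc than in PL-VTA, by 0.57, against -0.12 as deposited. Among genes with a mean of at least 50, Pla2g7 passed against PL-VTA as well (-0.69, adjusted p 0.0496 by the Wald z test). For Fgfr3 the difference from PL-VTA, -0.71 (95% interval from -1.19 to -0.22), did not pass (adjusted p 0.0977).

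In 3 genes PL-VTA stood apart from both others. Ndrg2 was less depleted in PL-VTA, with differences of -1.25 (SE 0.15, adjusted p 1.6e-14) in PL-NAc minus PL-VTA and -0.76 (SE 0.22, adjusted p 0.0125) in PL-BLA minus PL-VTA, by the Wald z test. Sparcl1 was also less depleted in PL-VTA, at -0.63 (SE 0.15) and -0.85 (SE 0.15), though the difference from PL-NAc no longer passed relative to other glia. Atp1b2 went the other way and was more depleted in PL-VTA, at 0.65 (SE 0.20) and 0.82 (SE 0.20). Aldh1l1 was higher in PL-BLA minus PL-VTA as well, by 0.89 (SE 0.23, adjusted p 0.00309 by the Wald z test). Mitochondrially encoded and excitatory neuron transcripts differed in PL-VTA too: in PL-NAc minus PL-VTA their median differences were -3.05 and 0.43, and in PL-BLA minus PL-VTA -1.73 and 0.44, and their part in these results was not tested. For Id3 the 3 differences were between -0.08 and -0.004, with intervals inside -0.58 and 0.43, and for Clu between -0.10 and 0.08, with intervals inside -0.30 and 0.37. Relative to other glia, Id3 passed as higher in PL-NAc by 0.61 than in PL-BLA and 0.62 than in PL-VTA. Clu did so by 0.51 and 0.67. That scale raises every gene in PL-NAc by a fixed amount, and these values are mostly that shift rather than a measured difference.

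The lower values of PL-NAc went along with lower values of other glia, and of inhibitory neuron, endothelial and mural markers. In PL-NAc minus PL-BLA the median difference was -0.71 over the oligodendrocyte and -0.76 over the microglial markers, and in PL-NAc minus PL-VTA it was -0.59 and -0.80. In the same pairs it was -0.41 and -0.63 over the inhibitory neuron markers, and -0.19 and -0.52 over the endothelial and mural markers. Over the excitatory neuron markers it was -0.10 and 0.43. Set relative to the oligodendrocyte and microglial lists, the median difference of the astrocyte genes turned positive, at 0.17 in PL-NAc minus PL-BLA and 0.37 in PL-NAc minus PL-VTA. On that scale 3 members were lower and 8 higher in PL-NAc minus PL-BLA, and 1 was lower and 10 were higher in PL-NAc minus PL-VTA. The scale raises every gene in PL-NAc against the other projections. The shares of all genes called on it are not given, so these counts have no background. Those that stayed lower were Aldh1l1, Fgfr3 and Htra1 in the first pair and Ndrg2 in the second. The connexins, S1pr1 and Acsbg1 no longer differed at the threshold. Those higher in both pairs were Id3, Clu, Atp1b2, Hes5, Mt3, at 0.89 and 1.08, and Cst3, at 0.78 and 0.81. The same 4 genes differed between PL-BLA and PL-VTA on both scales, and the part of other glia or other cell types in the differences was not tested further.

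**Figure D4:**
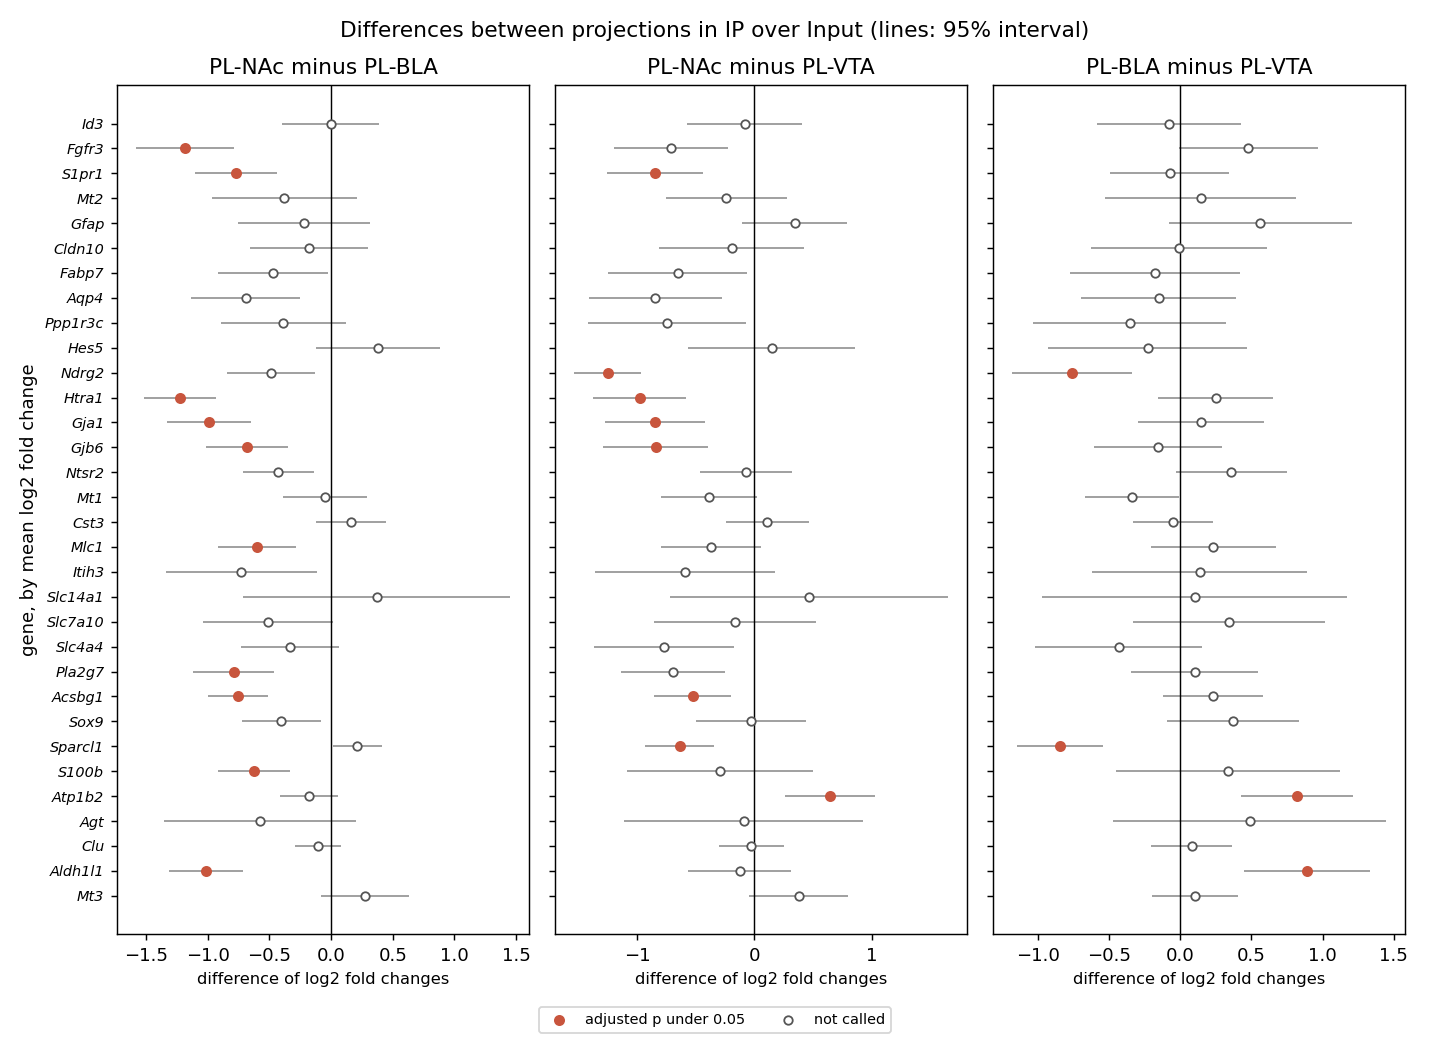
Difference between projections in the log2 fold change of IP over Input, for the 32 astrocyte genes in the order of their mean depletion. Points are differences, lines 95% intervals, and red points pass an adjusted p of 0.05 by the Wald z test. In PL-NAc minus PL-BLA all 10 red points lie left of 0, whereas in PL-BLA minus PL-VTA 2 lie on each side.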

How the data were processed

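The submitters' processing notes name STAR 2.3, featureCounts and DESeq2, and the builds mm10 and GRCm38. The annotation release, strand setting, filters and model formula were not given in these sources. Per the labels' protocols, libraries used the SMARTer Ultra Low and Nextera XT kits. The signal used is the mean normalized count deposited by the authors. The log2 fold change and its SE are the authors' deposited values and appear shrunken toward 0. The deposited Wald score equals their ratio, and the p-value and adjusted p-value deposited by the authors were recomputed from it without a difference. Percent of Input, counts in IP and Input, intervals and tests of differences used the deposited fold changes as they stand. Any shrinkage may differ between genes and projections, and no correction was made for it.

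The members, gene lists and tests were chosen with earlier results of these data known. Genes described in full were the 6 lowest and 6 highest members by mean, all not called lower somewhere, and all called different; of the other astrocyte genes, the 4 lowest and 4 highest with a mean of at least 50. Differences between projections used a Wald z with Benjamini-Hochberg adjustment over 17444, 15432 and 15431 genes with an adjusted p in both tables (Python 3.11.15, SciPy 1.17.1). The code was run on fold changes simulated with the deposited SEs. That run checks the code only and cannot show whether those SEs are right for the real libraries. Percent of Input is 100 times 2 to the log2 fold change. Counts in IP and Input were worked out from the mean and the fold change for equal numbers of libraries. Coordinates, exonic lengths and overlaps come from GENCODE M21 (GRCm38), which may not be the authors' release. The planned library-level fits were not used, since the tables hold comparisons only.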

Additional observations from a re-analysis of the deposited data

Results flagged for a closer look

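Among the members, 13 changed by a different amount in one projection than in another, by the Wald z test of the difference itself (adjusted p under 0.05 over all genes). The values are differences of log2 fold changes, and no explanation was tested. In PL-NAc minus PL-BLA they were -1.23 for Htra1, -1.19 for Fgfr3, -1.01 for Aldh1l1, -0.99 for Gja1 and -0.79 for Pla2g7. In the same pair they were -0.77 for S1pr1, -0.76 for Acsbg1, -0.68 for Gjb6, -0.63 for S100b and -0.60 for Mlc1. In PL-NAc minus PL-VTA they were -1.25 for Ndrg2, -0.98 for Htra1, -0.85 for Gja1, -0.84 for S1pr1 and -0.84 for Gjb6. That pair also held -0.63 for Sparcl1, -0.53 for Acsbg1 and 0.65 for Atp1b2. In PL-BLA minus PL-VTA they were 0.89 for Aldh1l1, 0.82 for Atp1b2, -0.76 for Ndrg2 and -0.85 for Sparcl1.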

How the results depend on the processing

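At an adjusted p under 0.01, on genes with a mean of at least 50, without a filter and after recentring on all genes (shifts of 0.06, 0.06 and 0.06), counts of depleted members stayed between 28 and 31. Against a 2-fold decrease 22, 17 and 12 members passed in PL-NAc, PL-BLA and PL-VTA; that null is stricter by construction. Recentring on excitatory markers lowered every gene by 0.51, 0.63 and 0.16. By that subtraction the member median moved to -2.39 in PL-NAc and -2.07 in PL-BLA, and Aldh1l1 in PL-BLA turned to -0.40. It called 32, 32 and 30 members lower. The shares of all genes called lower are not given for these settings, so their counts have no background. At an adjusted p under 0.01, 5 members differed between PL-NAc and PL-VTA, where Acsbg1, Atp1b2 and Gjb6 were lost. Mlc1 was lost in PL-NAc minus PL-BLA and Ndrg2 in PL-BLA minus PL-VTA, which left 9 and 3 members. The shares of all genes at that threshold are not given. Relative to other glia, 11, 11 and 4 members differed in the 3 pairs, sharing 3 of 10, 2 of 8 and 4 of 4 genes with the reported ones. The share of all genes on that scale is not given. No paired analysis was possible because the tables hold no per-library columns, and leaving out each replicate could not be run for the same reason. The low counts of Agt and Slc14a1, and 2 libraries a group in PL-VTA, limit what can be detected.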
